A study of Homo sapiens with 4 samples.

Results

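The mRNA levels of 10 genes that report on and restrain the ERK pathway were followed in BE(2)C cells after MYCN knockdown: DUSP4, DUSP5, DUSP6, SPRY1, SPRY2, SPRY4, SPRED1, SPRED2, ETV4 and ETV5. They were picked by gene symbol, and all 10 were found among the 26364 listed genes. BE(2)C is a human neuroblastoma cell line that carries an amplified MYCN gene. RNA-seq covered 4 samples, 2 of cells given a non-targeting siRNA (Ctrl) and 2 of cells given an siRNA to MYCN (MYCN KD). Both groups were incubated with siRNA (80 nM per the labels) and Lipofectamine 2000 for 6 h, and RNA was taken on the following day. Per the study's methods, medium was added after the incubation without removing the mixture, and the lower concentration they state is the one after this addition. The knockdown was transient and partial and was made in a single line. The study's methods call the replicates biological, but they and the labels do not say whether these came from separate cultures, so p-values measure only the spread between these samples.

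ERK is the last kinase of a cascade that carries signals from receptor tyrosine kinases through RAS, RAF and MEK to the nucleus. Active ERK switches on genes whose products limit it in turn, and the mRNA of these genes is a common readout of pathway output. DUSP4, DUSP5 and DUSP6 encode phosphatases that act on ERK. SPRY1, SPRY2 and SPRY4 encode Sprouty proteins, and SPRED1 and SPRED2 encode related proteins, which restrain signaling upstream of ERK. ETV4 and ETV5 encode ETS transcription factors of the PEA3 group, effectors of the pathway.

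DUSP4 rose 2.01-fold, DUSP5 2.46-fold and DUSP6 2.23-fold in mean RPKM (reads per kilobase of gene, scaled to the reads of the sample). SPRY4 rose 1.18-fold. SPRY2 had a ratio of 1.24 that did not pass the test, and SPRED1, SPRED2, ETV4 and ETV5 had ratios from 0.983 to 1.04. SPRY1 had at most 10 reads in any sample. In bulk RNA, fewer cells of a type and less RNA per cell cannot be told apart.

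Promoter windows from RefSeq (GRCh38.p14), each with 250 bases before and 50 bases after a start site, were matched for 6 of the 10 genes, in 10 windows. DUSP4, DUSP5, ETV4 and ETV5 had no entry. Of the called genes, DUSP6 (chr12:89352452-89352751, minus strand) and SPRY4 (chr5:142324198-142324497, minus strand) have a window. Both are printed from 5′ to 3′ to show how they differ in CGGAA, a form of the ETS core. Each CGGAA or its reverse complement TTCCG is in capitals.
DUSP6: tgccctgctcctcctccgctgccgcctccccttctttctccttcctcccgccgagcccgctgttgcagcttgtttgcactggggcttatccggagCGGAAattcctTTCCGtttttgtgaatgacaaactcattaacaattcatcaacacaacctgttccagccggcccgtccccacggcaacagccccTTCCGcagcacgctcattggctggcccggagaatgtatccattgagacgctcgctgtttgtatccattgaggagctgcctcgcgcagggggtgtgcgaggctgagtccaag
SPRY4: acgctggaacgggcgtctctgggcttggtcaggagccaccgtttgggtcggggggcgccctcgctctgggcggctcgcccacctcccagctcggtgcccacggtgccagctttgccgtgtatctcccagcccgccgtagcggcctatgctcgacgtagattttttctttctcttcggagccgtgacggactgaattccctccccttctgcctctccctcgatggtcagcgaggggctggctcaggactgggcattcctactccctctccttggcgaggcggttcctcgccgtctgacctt
The DUSP6 window held CGGAA 3 times, at -155, -144 and -61 from the start site, and the SPRY4 window 0 times. Forms of the core without these letters were not searched, so the SPRY4 window is not shown to lack an ETS core. This form of the core was chosen after the data were seen. It is present on either strand in 34.9% of all 35116 windows and in 4 of the 10 windows matched here. Besides DUSP6, these were 1 window each of SPRY2, with CGGAA 2 times, SPRED2 and SPRY1. SPRY2 and SPRED2 were tested and not called, and SPRY1 was below the filter and not tested. The longer ETS site CCGGAAG, which contains the core, was in 10.3% of all windows and here in 1 window of SPRY1. The AP-1 site TGANTCA was in 7.71% of all windows and here 2 times in 1 window of SPRED2. The E-box CACGTG, a site of MYC family proteins, was in 7.26% of all windows and in 0 of the 10. The CIC sites TGAATGAA (1.65% of all windows) and TGAATGGA (1.03%) and the cyclic AMP response element TGACGTCA (1.85%) were also in 0 of the 10. Other forms of the CIC site were not searched, so the windows, that of DUSP6 included, are not shown to lack one. Both strands were searched. A match describes the letters only, and no match says only that the letters are not in the window.

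Recovered read totals lay between 29055819 and 34142988 per sample. MYCN measured 1068 and 1073 RPKM in the controls against 720.2 and 718 after knockdown, a ratio of 0.672 (limma adjusted p = 0.00361). All 9 noradrenergic neuroblastoma markers passed the filter, with 4 higher and 2 lower, and their summed level was from 1629 to 1776 RPKM in the controls and from 2436 to 2662 after knockdown. For lists of 5 markers each, summed levels were from 3.49 to 4.29 RPKM in the controls and from 9.45 to 11.5 after knockdown for leukocytes, nearly all from CD68, and from 13.7 to 14.6 RPKM in the controls and from 25.6 to 27.1 after knockdown for epithelium, nearly all from KRT19. They were from 12.6 to 14.97 RPKM in the controls and from 16.7 to 19.6 after knockdown for fibroblasts, from 0.291 to 0.373 RPKM in the controls and from 0.522 to 0.658 after knockdown for endothelium, and from 5.57 to 5.90 RPKM in the controls and from 9.87 to 10.5 after knockdown for Schwann cells. Defining markers stayed low in every sample, with at most 0.00464 RPKM for PTPRC, 0.0290 for PECAM1, 0.0722 for SOX10 and 0.421 for EPCAM. The part of these genes in the results was not tested.

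Differences were tested with limma on log2(RPKM + 1), a scale that understates the change of low genes, over the 11411 genes whose mean RPKM was 1 or more. A gene was called at an adjusted p under 0.05 after Benjamini-Hochberg adjustment. Of the 10 genes, 9 passed the filter, and 4 of these were called higher in MYCN KD and 0 lower. Over all tested genes 25.3% were called higher and 22.8% lower, 48.1% in either direction, so calls were common in these samples. In 5 of the 9 genes both knockdown values lay above both control values, beside 40.4% of all tested genes, and in 0 they lay below, beside 35.8%. The median log2 fold change of the 9 genes was 0.23, against 0.026 over all tested genes.

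**Figure D1:**
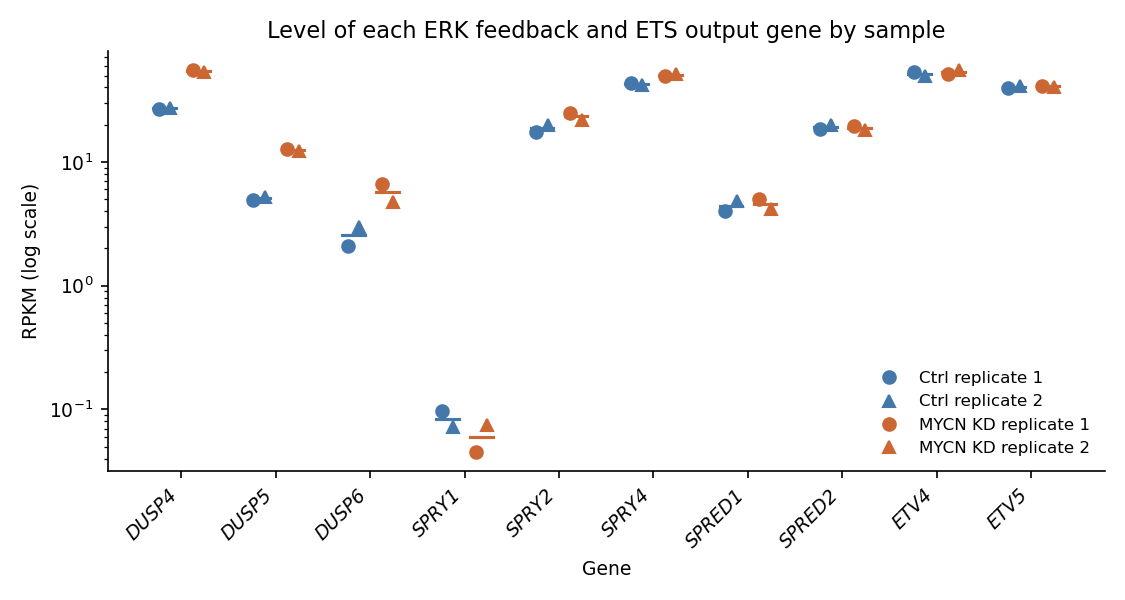
RPKM on a log axis for each of the 10 genes, with Ctrl samples in blue, MYCN KD samples in orange, circles for replicate 1, triangles for replicate 2 and bars for the mean of 2 samples. DUSP4, DUSP5 and DUSP6 show a gap between the groups, and SPRY1 lies lowest, at 0.0963 RPKM or less.

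DUSP4 (GRCh37 chromosome 8, 29190581 to 29208201, minus strand) encodes a nuclear phosphatase of ERK and related kinases. It measured 26.7 and 27.5 RPKM in the controls against 55.4 and 53.7 after knockdown. Both knockdown samples were about 2 times the controls, and the groups did not overlap. The log2 fold change was 0.98 (standard error 0.040, 95% interval 0.86 to 1.10, limma adjusted p = 0.00359), above that of 98.1% of all tested genes.

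DUSP5 (chromosome 10, 112257665 to 112271291, plus strand) encodes a nuclear phosphatase selective for ERK. It measured 4.96 and 5.20 RPKM in the controls against 12.8 and 12.2 after knockdown, again without overlap. The log2 fold change was 1.15 (standard error 0.049, 95% interval 1.01 to 1.30, limma adjusted p = 0.00359), the largest of the 9 tested genes and above that of 99.1% of all tested genes.

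DUSP6 (chromosome 12, 89741012 to 89746278, minus strand), whose promoter is printed above, encodes a cytoplasmic phosphatase selective for ERK. It measured 2.105 and 2.98 RPKM in the controls against 6.64 and 4.73 after knockdown. The groups did not overlap, but relative to their mean the replicates lay farther apart than those of DUSP4 and DUSP5. The log2 fold change was 0.91 (standard error 0.21, 95% interval 0.29 to 1.53, limma adjusted p = 0.0385). From 244 to 655 reads stood behind each value, a counting error of 4.20% of the control mean and 2.95% of the knockdown mean. The call was lost without a filter on low values (limma adjusted p = 0.143).

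Of the 3 Sprouty genes, 1 was called. SPRY4 (chromosome 5, 141689992 to 141706020, minus strand) measured 43.9 and 42.2 RPKM in the controls against 49.8 and 51.8 after knockdown, without overlap. The log2 fold change was 0.23 (standard error 0.043, 95% interval 0.11 to 0.36, limma adjusted p = 0.0229). The call was lost without a filter on low values (limma adjusted p = 0.0576). It was also lost when any 1 sample was left out, with log2 fold changes from 0.21 to 0.26. Fits with a sample left out, here and below, took a variance shared across genes, so a call can change while the estimate hardly moves.

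SPRY2 (chromosome 13, 80910111 to 80915261, minus strand) measured 17.5 and 20.0 RPKM in the controls against 24.8 and 21.8 after knockdown. Its groups did not overlap, but its replicates lay farther apart than those of SPRY4. The log2 fold change of 0.30 (standard error 0.10, 95% interval -0.0045 to 0.61, limma adjusted p = 0.0899) did not pass the threshold. With a variance shared across genes, it passed without Ctrl replicate 2 (0.39) and without MYCN KD replicate 2 (0.39).

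SPRY1 (chromosome 4, 124317950 to 124324915, plus strand) measured 0.0963 and 0.0720 RPKM in the controls against 0.0453 and 0.0744 after knockdown. These values rest on 4 to 10 reads per sample and overlap. SPRY1 was below the filter and was not tested, and no difference was detectable at this depth.

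SPRED1 (chromosome 15, 38545037 to 38649450, plus strand) helps bring the RAS inhibitor NF1 to the membrane. It measured 4.00 and 4.82 RPKM in the controls against 4.98 and 4.16 after knockdown (log2 fold change 0.043, standard error 0.12, 95% interval -0.32 to 0.40, limma adjusted p = 0.793). SPRED2 (chromosome 2, 65537985 to 65659771, minus strand) measured 18.5 and 19.9 RPKM in the controls against 19.6 and 18.2 after knockdown (log2 fold change -0.024, standard error 0.063, 95% interval -0.21 to 0.16, limma adjusted p = 0.775). The groups of both genes overlapped, and neither was called.

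ETV4 (chromosome 17, 41605212 to 41656988, minus strand) measured 53.5 and 49.6 RPKM in the controls against 51.6 and 55.5 after knockdown (log2 fold change 0.054, standard error 0.065, 95% interval -0.14 to 0.25, limma adjusted p = 0.527). ETV5 (chromosome 3, 185764103 to 185828107, minus strand) measured 39.98 and 41.4 RPKM in the controls against 41.5 and 40.1 after knockdown (log2 fold change 0.0027, standard error 0.041, 95% interval -0.12 to 0.12, limma adjusted p = 0.960). The groups overlapped for both ETS genes. A p above the threshold does not show that their levels were equal, but the upper ends of their intervals, 0.25 and 0.12, lie below the lower ends for DUSP4 and DUSP5, 0.86 and 1.01.

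**Figure D2:**
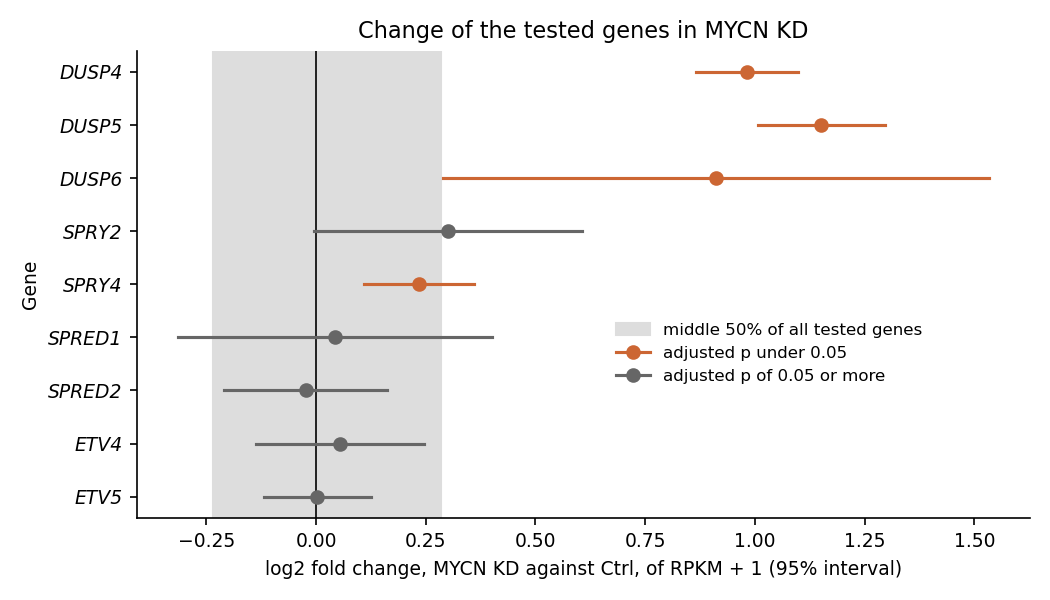
Log2 fold change of RPKM + 1 in MYCN KD against Ctrl for the 9 tested genes, with points for the limma estimate, lines for its 95% interval, orange for an adjusted p under 0.05 and grey for a higher one. The shaded band holds the middle 50% of all tested genes, from -0.23 to 0.29, and the intervals of DUSP4 and DUSP5 lie wholly to the right of it.

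The gap between phosphatase genes and ETV5 was also read within each sample, for pairs chosen with the values known. On the log2(RPKM + 1) scale, DUSP4 minus ETV5 was -0.56 and -0.57 in the controls against 0.41 and 0.41 after knockdown. DUSP5 minus ETV5 was -2.78 and -2.78 in the controls against -1.62 and -1.64 after knockdown. DUSP6 minus ETV5 was -3.72 and -3.41 in the controls against -2.48 and -2.84 after knockdown. In all 3 pairs both knockdown values were above both control values, by 0.98, 1.15 and 0.91 on average. The two-sided exact permutation test gave p = 0.333 for each, the smallest that 2 samples against 2 allow. ETV5 itself hardly changed (log2 fold change 0.0027), so these gaps restate the rises of the phosphatase genes and add no separate evidence.

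By level per gene length in the controls, ETV4 came first with 51.5 ± 2.77 RPKM (SD, n = 2). SPRY4 (43.0 ± 1.17), ETV5 (40.7 ± 1.04) and DUSP4 (27.1 ± 0.595) followed. SPRED2 (19.2 ± 0.992) and SPRY2 (18.7 ± 1.79) came next with overlapping values. DUSP5 (5.08 ± 0.168), SPRED1 (4.41 ± 0.579), DUSP6 (2.54 ± 0.622) and SPRY1 (0.0841 ± 0.0172) made up the lower end. After knockdown DUSP4 reached 54.5 ± 1.19 RPKM (SD, n = 2) and overlapped with ETV4 at 53.5 ± 2.82 RPKM. SPRY4, at 50.8 ± 1.35 RPKM, also overlapped with ETV4. DUSP6 reached 5.69 ± 1.35 RPKM and overlapped with SPRED1 at 4.57 ± 0.580 RPKM.

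The replicates limit what their spread can show. In all 10 genes, replicate 1 deviated from its group mean in opposite directions in the 2 groups. For DUSP6 the deviation was -0.18 in the controls and 0.21 after knockdown on the log2 scale, and for SPRY2 it was -0.093 and 0.090. Across all tested genes these deviations had a correlation of -0.98, so the spread in one group largely repeats that in the other.

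**Figure D3:**
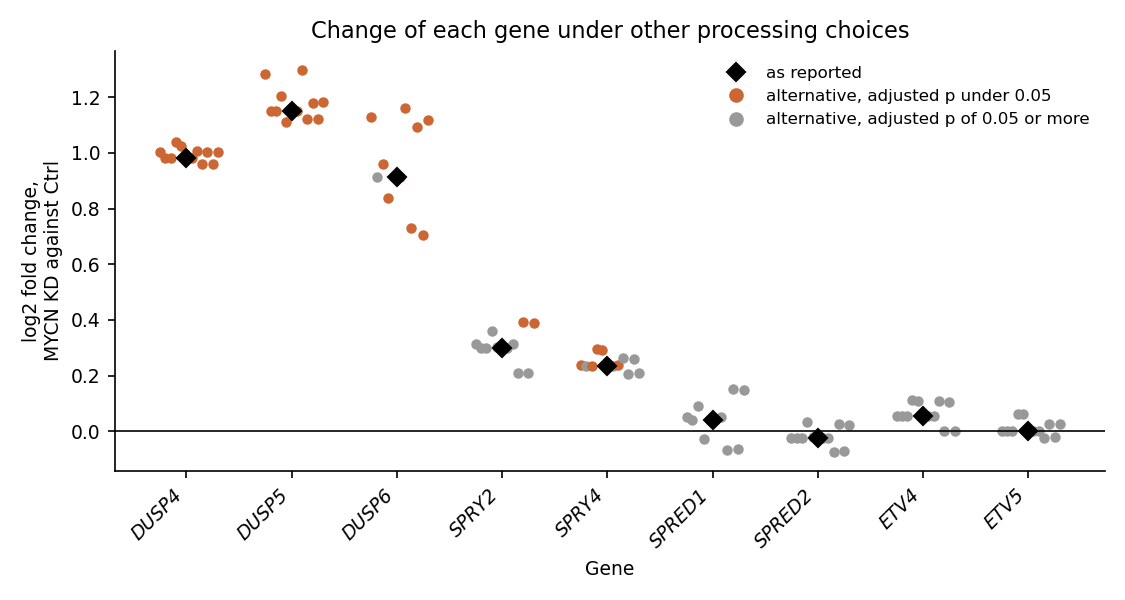
Log2 fold change in MYCN KD against Ctrl for the 9 tested genes, with black diamonds for the reported values and dots for other processing choices and for each sample left out (orange for an adjusted p under 0.05, grey for a higher one). DUSP4 stays between 0.96 and 1.04 and DUSP5 between 1.11 and 1.30. DUSP6 spreads most of the 3 phosphatase genes when a sample is left out, and SPRED1, SPRED2 and ETV5 fall on both sides of 0.

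Other genes of the pathway came from fixed lists, whose counts are read beside the 25.3% higher and 22.8% lower of all tested genes. Of 7 further MAP kinase phosphatases, 5 passed the filter, of which 2 rose and 1 fell (median log2 fold change 0.090). DUSP8, which acts mainly on stress kinases, rose from 3.70 and 3.68 to 8.52 and 8.55 RPKM (log2 fold change 1.02, limma adjusted p = 0.00359). DUSP10, another phosphatase of stress kinases, rose from 6.85 and 7.20 to 9.69 and 9.24 RPKM (log2 fold change 0.38). DUSP7, a cytoplasmic ERK phosphatase related to DUSP6, fell from 28.4 and 26.7 to 20.9 and 22.3 RPKM (log2 fold change -0.34, limma adjusted p = 0.02003). DUSP7 lost its call without Ctrl replicate 1 and without MYCN KD replicate 1, and 0 genes of this list were then called lower. DUSP1, an immediate early phosphatase, measured 7.52 and 7.62 RPKM in the controls against 8.16 and 8.08 after knockdown (limma adjusted p = 0.139).

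Of 16 other inhibitors of RAS and ERK signaling, 12 passed the filter, of which 2 rose and 1 fell (median log2 fold change 0.12). SPRED3, a relative of SPRED1 and SPRED2, rose from 0.807 and 0.807 to 3.04 and 3.03 RPKM (log2 fold change 1.16, limma adjusted p = 0.00359) and passed the filter only through its knockdown values. ERRFI1, an inhibitor of EGFR family receptors, rose with a log2 fold change of 0.17, a call that was lost when any 1 sample was left out (0.15 to 0.19). The list then had 1 gene higher without either replicate 1 and 3 without either replicate 2. PEBP1, which restrains the cascade at the level of RAF, fell from 347 and 355 to 272 and 266 RPKM (log2 fold change -0.38, limma adjusted p = 0.00620). NF1, which switches RAS off, was below the filter with 0.665 and 0.752 RPKM in the controls against 1.03 and 0.919 after knockdown.

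Of 15 other ERK target genes, 9 passed the filter, of which 3 rose and 0 fell (median log2 fold change 0.21). EGR1, an immediate early transcription factor, rose from 11.2 and 11.2 to 23.7 and 23.5 RPKM (log2 fold change 1.01, limma adjusted p = 0.00359). FOS, an AP-1 subunit, rose from 1.33 and 1.26 to 2.18 and 2.28 RPKM (log2 fold change 0.49). Without Ctrl replicate 2, 5 genes of this list were called higher. ETV1, the PEA3 factor beside ETV4 and ETV5, had overlapping values of 5.35 and 6.65 RPKM in the controls against 7.86 and 6.36 after knockdown (limma adjusted p = 0.303). CCND1, which encodes cyclin D1, measured 299 and 310.4 RPKM in the controls against 345 and 333 after knockdown and missed the threshold (limma adjusted p = 0.0506).

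A list of 21 genes held other ETS factors, CIC, and the CIC partners ATXN1 and ATXN1L. Of these, 15 passed the filter, of which 2 rose and 4 fell (median log2 fold change -0.020). CIC, a repressor of ETV and DUSP genes that ERK inactivates, rose from 27.5 and 24.7 to 32.8 and 36.4 RPKM (log2 fold change 0.39, limma adjusted p = 0.0328). ELF4 rose with a log2 fold change of 0.65. ETS2 fell with a log2 fold change of -0.52, and ELK1, a direct ERK substrate, with one of -0.34. The other genes counted as fallen, ATXN1 (-0.33) and ATXN1L (-0.19), are not ETS factors and are named after their values were seen. Without Ctrl replicate 2 or either MYCN KD replicate, 2 genes of the list were called lower, and ELK1 lost its call without either replicate 1. ERF, an ETS repressor that ERK moves out of the nucleus, had overlapping values (limma adjusted p = 0.934).

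Of 21 genes of the cascade from RAS to ERK and the adaptors upstream of RAS, 19 passed the filter, of which 5 rose and 1 fell (median log2 fold change 0.17), a share of rises close to that of all tested genes. SHC1, an adaptor of tyrosine kinase receptors, rose from 94.5 and 96.2 to 183 and 180.0 RPKM (log2 fold change 0.92, limma adjusted p = 0.00359). SOS2, a RAS activator, rose with a log2 fold change of 0.94. The adaptors GRB2 (0.26) and FRS3 (0.72), named after their values were seen, also rose. KSR1, a scaffold of the cascade, fell with a log2 fold change of -0.19, a call that was lost when any 1 sample was left out (-0.20 to -0.19). MAPK3, which encodes ERK1, rose from 40.6 and 37.3 to 53.8 and 58.3 RPKM (log2 fold change 0.51, limma adjusted p = 0.0130). Without Ctrl replicate 2 or MYCN KD replicate 2, 8 genes of the cascade were called higher.

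Of 20 receptor tyrosine kinases, 10 passed the filter, of which 8 rose and 0 fell (median log2 fold change 0.43). LTK, a receptor related to ALK, rose from 2.71 and 2.26 to 13.4 and 15.9 RPKM (log2 fold change 2.17, limma adjusted p = 0.00380). Without MYCN KD replicate 2, 5 receptor genes were called higher. Of 29 receptor ligands, 7 passed the filter, of which 3 rose and 0 fell (median log2 fold change 0.31). IGF2, an insulin-like growth factor, and PTN were among those that rose, with log2 fold changes of 0.52 and 0.45.

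**Figure D4:**
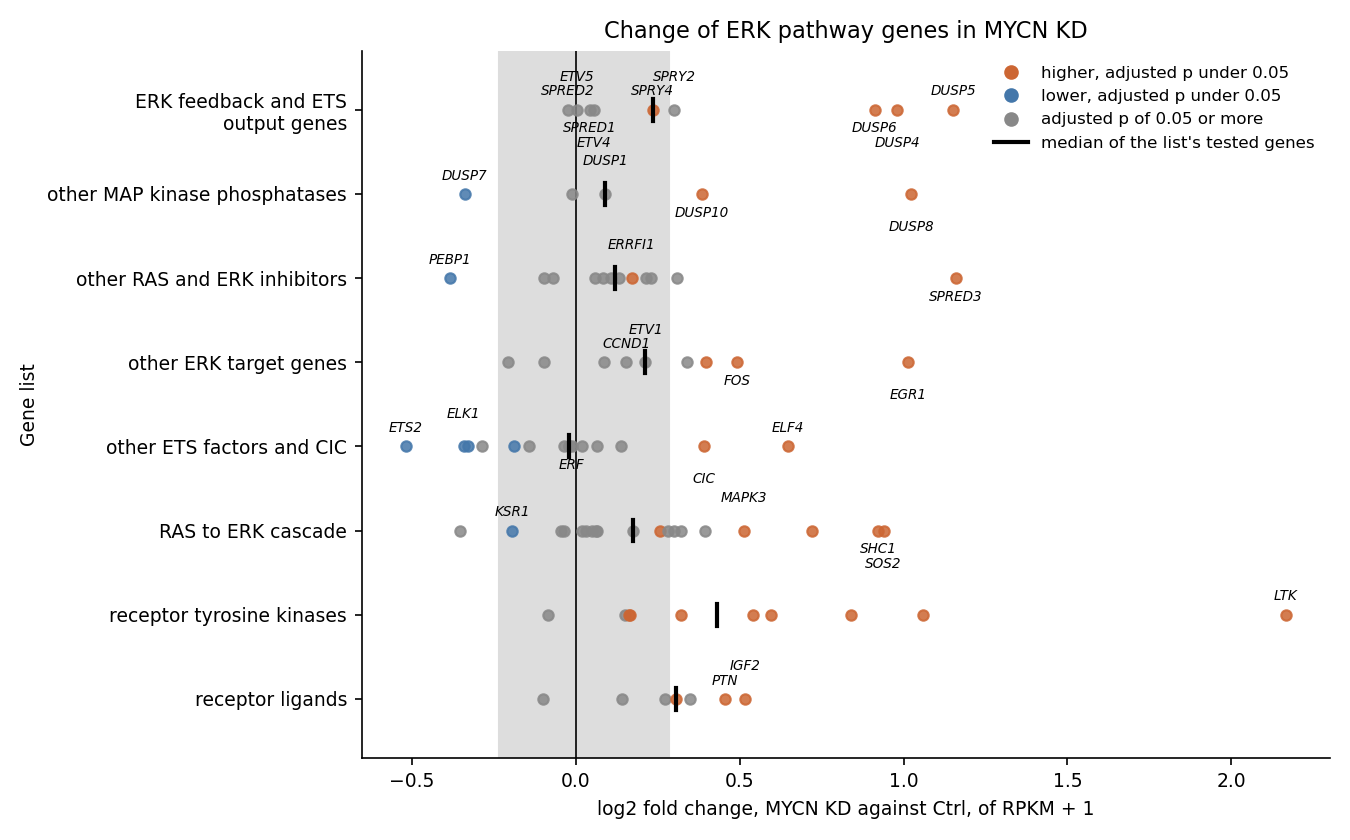
Log2 fold change of RPKM + 1 in MYCN KD against Ctrl for the tested genes of each list, with orange for genes called higher, blue for genes called lower, grey for genes not called, black bars for the median of each list and the shaded band for the middle 50% of all tested genes. DUSP7 (-0.34) lies opposite DUSP8 (1.02), and LTK (2.17) is farthest to the right.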

How the data were processed

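RNA-seq values of 4 samples, 2 of Ctrl and 2 of MYCN KD, were analysed. Per the labels and methods, the authors aligned reads to hg19 (HISAT2 2.1.0), counted RefSeq genes (featureCounts) and applied DESeq2 and then RUVSeq, which removes unwanted variation. The deposited RPKM values were made by the authors from the normalized counts, so this adjustment precedes every level and replicate spread given here.

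Log2(RPKM + 1) was fitted with limma 3.58.1 in R 4.3.3 (eBayes with a trend, no block, Benjamini-Hochberg adjustment, threshold 0.05) where the mean RPKM was 1 or more, which left 11411 genes. The fit was tested on simulated data whose samples varied independently. The opposite replicate deviations seen here were not simulated, so that test does not show how the calls fare under them. Reads were recovered from the RPKM values and came out whole for 99.95% of the genes above 0, within 0.002 reads plus a margin for rounded values. In the step that set the sample totals, from 93.5% to 94.5% of small RNA genes were whole within 0.02 reads. They follow the authors' normalization, so raw depth is not known, and counting errors cover counting only. Summaries used Python 3.11.15. Gene positions are from GENCODE on GRCh37, and promoter windows from RefSeq on GRCh38.p14, with no conversion.

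The members, lists and tests were chosen with earlier results of these data known. Genes named were the 10 members, MYCN, a set of genes always given, and the 2 largest rises and 2 largest falls of each list past the threshold without overlap. Some genes that this rule names are not reported here. Alternatives were a pseudocount of 0.1, no filter, a mean RPKM of at least 5, rescaling, quantile normalization, eBayes without a trend, a replicate block, limma voom on the recovered reads and each sample left out. A crossed block and the CGGAA motif were added after seeing the data. Protein sequences were not used here.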

Additional observations from a re-analysis of the deposited data

How the results depend on the processing

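DUSP4 (0.96 to 1.04) and DUSP5 (1.11 to 1.30) kept their call under every alternative and with each sample left out. When low values were not filtered, 2 of the 10 genes were called higher, as DUSP6 (0.91) and SPRY4 (0.23) lost the call. Same-numbered samples deviated in opposite directions (correlation -0.98), and the study states no paired design, so the numbers were not taken as pairs. The reported fit took the spreads of the groups as independent, and its p-values do not allow for this link. With the replicate block, SPRY4 (0.23, limma adjusted p = 0.203) lost the call, and 2077 genes were higher and 1851 lower in all, against 2890 and 2599. Crossing the numbers in the replicate block was an alternative added after the data were seen. Given the opposite deviations, it pairs samples that deviate alike, so little spread is left to test against. It called 5910 of the 11411 tested genes higher and 5262 lower. Of the 9 tested members, 7 were called higher and 1 lower. SPRY2 (0.30), SPRED1 (0.043), SPRED2 (-0.024) and ETV4 (0.054) passed the threshold at unmoved log2 fold changes. With nearly every gene called, this fit cannot separate changed from unchanged levels. Nothing is drawn from its calls, and it is left out of what follows. With a mean RPKM of at least 5, which tests fewer genes, 1868 genes were higher. SPRED1 turned to -0.027 with quantile normalization, SPRED2 to 0.034 with rescaling, and SPRY1 moved from -0.033 to -0.21 with a pseudocount of 0.1. With each sample left out, log2 fold changes ranged from 0.70 to 1.12 for DUSP6, 0.21 to 0.39 for SPRY2, 0.21 to 0.26 for SPRY4, -0.067 to 0.15 for SPRED1, -0.074 to 0.026 for SPRED2 and -0.023 to 0.028 for ETV5. These fits and the replicate block had 1 residual degree of freedom and took a variance shared across genes, and a lone sample was assumed to vary like the other group. With the replicate block, DUSP7, DUSP10, ELK1, KSR1 and ERRFI1 lost their calls, which left 1 further MAP kinase phosphatase higher and 0 lower. Without a filter, DUSP7, ELK1, KSR1, ERRFI1, CIC, MAPK3 and SOS2 lost theirs. ERRFI1 also lost its call with quantile normalization. CCND1 passed the threshold under the filter at a mean RPKM of 5, rescaling, quantile normalization and limma voom, and ETV1 passed it without Ctrl replicate 2. ERF (-0.012) turned to 0.055 with quantile normalization and 0.048 with rescaling, and ranged from -0.11 to 0.086 with a sample left out. Genes of the RAS to ERK cascade called higher numbered 2 without a filter, against 5. The other RAS and ERK inhibitors had from 0 to 4 higher, against 2, and the other ETS factors and CIC from 1 to 6 lower, against 4. With the replicate block, 5 receptor tyrosine kinases were higher, against 8. The fits differ in the genes or samples used, the scaling or the variance taken, and the cause of the changed calls was not tested.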
